A study of Danio rerio with 13 samples.

Results

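Dibenzazepine (DBZ) is an inhibitor of γ-secretase, the protease that cuts Notch receptors within the membrane. The expression of arch neural crest cells (NCCs) from zebrafish embryos treated with DBZ is described here across 8133 genes. The members are all genes of the table with an RPKM (reads per kilobase of transcript scaled to the mapped reads of the library) of at least 3 in the DBZ library or in the wild-type library of the same stage, out of 27911 genes in all. Cells positive for both the *sox10*:DsRed and the *fli1a*:EGFP transgene were sorted from dissociated embryos at 36 hours post-fertilization (hpf), and each condition is 1 library of pooled embryos. The tested embryos were wild type for both signaling pathways studied and were exposed to 10 μM DBZ from 24 hpf until 36 hpf. Embryos collected at 36 hpf were kept at a lower temperature on the last day to delay their development. The reference is the library of untreated wild types at 36 hpf. A second control is the library of wild-type siblings from the *jag1b* mutant line, which had been genotyped individually. A further pair of controls, carrying *hsp70I*:Gal4 or *UAS*:Edn1 alone and heat-shocked, was used to set the range between control libraries. Double-positive libraries of heat-shocked *hsp70I*:Gal4; *UAS*:NICD embryos, of *jag1b* and *edn1* mutants at 36 hpf, and of untreated wild types at 20 and 28 hpf are used for comparison, as are cells of 36 hpf wild types positive for only 1 transgene. All of these embryos carried both sorting transgenes, and *sox10*:DsRed also labels the ear while *fli1a*:EGFP also labels vessels and macrophages. The wild-type library is labelled as having had no treatment, so effects of DBZ cannot be told apart from those of the solvent and of handling.

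When a Notch ligand on a neighboring cell binds a Notch receptor, γ-secretase releases the intracellular domain (NICD) of the receptor. NICD enters the nucleus, joins the DNA-binding protein Rbpj, and switches on target genes, among them those for the Her, Hes and Hey family of transcriptional repressors. In the arches the ligand Jagged1b acts dorsally, where Notch signaling patterns the upper face and restrains cartilage formation. γ-secretase also cuts other membrane proteins, including cadherins, ephrin receptors and syndecans.

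With 1 library a side there is no replicate spread and no test, and the controls themselves differed. The *jag1b* siblings had at most 1/2 of the wild-type RPKM for 516 genes (6.34%) and at least 2-fold the wild-type RPKM for 344 genes (4.23%), 860 in all. DBZ differed 2-fold from wild types in 884 genes and from the siblings in 411. The wild-type 36 hpf library lay at least 2-fold below the other 3 controls for 230 genes and above them for 265, against 35 and 21 genes for the siblings, 5 and 16 for *hsp70I*:Gal4 controls, and 52 and 2 for *UAS*:Edn1 controls. All numbers here cover only genes at 3 RPKM or more with DBZ or in wild types. Genes high only in another control are left out, so the numbers above the other controls are in part set by the filter. The heat-shocked controls also share their treatment, which limits how far either can stand apart. Together with the *edn1* mutant library and both single-positive libraries, a set of 4 picked after their values were seen, the wild-type library was at least 2-fold below all 9 other libraries for 110 genes and above them for 37. An example is *SRF (2 of 2)*, at 9.19 RPKM with DBZ, against 0.126 in wild types, 3.62 in siblings, 2.58 in *hsp70I*:Gal4 and 3.95 in *UAS*:Edn1 controls. The libraries were sequenced on 2 types of machine, and the sources used here do not say which library ran on which. A difference from wild types alone is therefore given below only beside the other controls. Depth relative to the wild-type library, recovered from the steps between RPKM values, was 1.04 for DBZ, 1.02 for siblings, 1.23 for *hsp70I*:Gal4 and 0.797 for *UAS*:Edn1 controls.

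**Figure D1:**
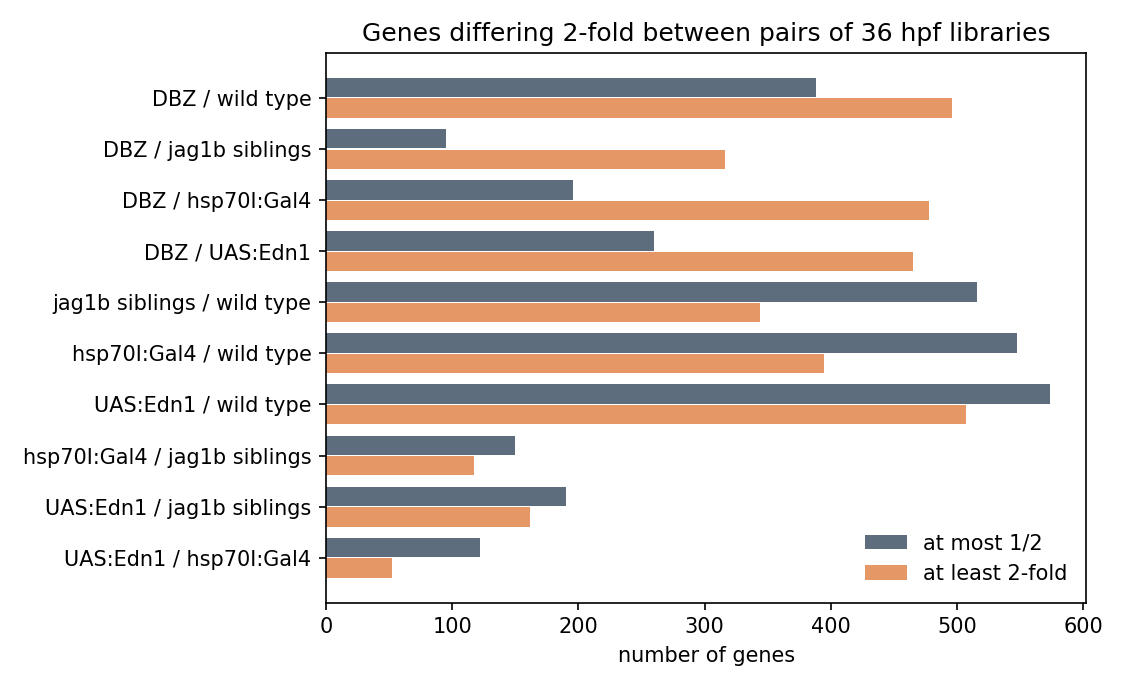
Number of genes (horizontal axis, of 8133) at most 1/2 of, or at least 2-fold, the second library of each pair of 36 hpf libraries. DBZ over wild type gives 388 and 496 genes and DBZ over *jag1b* siblings 95 and 316, while the siblings over wild type give 516 and 344. Only genes at 3 RPKM or more with DBZ or in wild types are counted, which in part sets these splits.

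The sorted cells carried the markers of arch NCCs. All 10 listed markers, among them *dlx2a*, *prrx1a* and *twist1a*, passed the RPKM filter, and their summed RPKM was 796 with DBZ, against 743 in wild types, 868 in siblings, 724 in *hsp70I*:Gal4 and 837 in *UAS*:Edn1 controls. The list includes *sox10* and *fli1a*, the genes of the sorting transgenes, which are no separate sign of cell identity. *sox10* is also on the pigment and glia list. Markers of other cell types were also present. The 9 blood marker entries summed to 60.5 with DBZ, below the 133, 324, 1420 and 208 of the 4 controls in the same order, and all 7 blood entries that passed the filter were below all 4 controls. The erythroid factor *gata1a* did not pass the filter, at 0 RPKM with DBZ and 0.0284 in wild types, 0.204 in siblings, 3.68 in *hsp70I*:Gal4 and 0.19 in *UAS*:Edn1 controls. The muscle markers summed to 315 with DBZ, against 481 in wild types, 147 in siblings, 18.4 in *hsp70I*:Gal4 and 11.1 in *UAS*:Edn1 controls. The macrophage and neutrophil markers summed to 64 with DBZ and to 28.4, 104, 50.7 and 18.4 in the controls. The epidermal markers, mostly keratins, summed to 91.7 with DBZ and to 29.2, 83.8, 47.4 and 20.6. The pigment and glia markers summed to 8.72 with DBZ, above the 5.42 of wild types but below the 18.3, 27.5 and 17.7 of the other controls. The ear markers summed to 60.4 with DBZ, against 13.2, 15.5, 22.5 and 21.5, and *mvp*, described below, makes up most of the DBZ sum. The neuron markers at 82.2 and the vessel markers at 7.73 with DBZ lay within the ranges of the controls, from 78.1 to 101 and from 6.01 to 8.83. Of the 7 neuron markers only *tubb5*, a tubulin gene, passed the filter, and it makes up most of each neuron sum. The other neuron markers were all below both heat-shocked controls. Among them, *elavl3* was at 2.55 with DBZ, against 2.19 in wild types, 3.1 in siblings, 8.41 in *hsp70I*:Gal4 and 8.66 in *UAS*:Edn1 controls. The part of these cells in the differences described below was not tested. In sorted populations fewer cells of a type cannot be told apart from less RNA per cell.

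Relative to wild types, 388 genes (4.77%) had at most 1/2 of the RPKM with DBZ and 496 (6.1%) had at least 2-fold, with a median log2 ratio of -0.09 over all 8133 genes. Relative to siblings these numbers were 95 (1.17%) and 316 (3.89%), with a median of 0.07. Genes high only in siblings do not pass the filter, so this split is in part set by it. With siblings in place of wild types in the filter, 129 genes were lower and 289 higher. Both controls were passed in the same direction by 54 lower genes (0.664%) and 106 higher genes (1.3%). All 4 controls were passed by 43 lower genes (0.529%) and 60 higher genes (0.738%). Against the 3 controls other than the wild-type library, 58 genes were lower and 145 higher, a split that the filter also sets in part. Part of the changed genes were more abundant in single-positive cells than in wild-type double-positive cells, a comparison that shares the wild-type library with the calls. Of the 54 lower genes, 15 (27.8%) were at least 2-fold higher in cells with *fli1a*:EGFP alone and 16 (29.6%) in those with *sox10*:DsRed alone, against 228 (2.8%) and 405 (4.98%) of all genes. Of the 106 higher genes, 16 (15.1%) and 13 (12.3%) were. Near the threshold of 3 RPKM, 12 of 1060 genes with a highest value from 3 to 4 RPKM were lower than both controls and 11 higher, and of 1413 genes just outside, from 2 to 3 RPKM, 17 were lower and 21 higher.

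**Figure D2:**
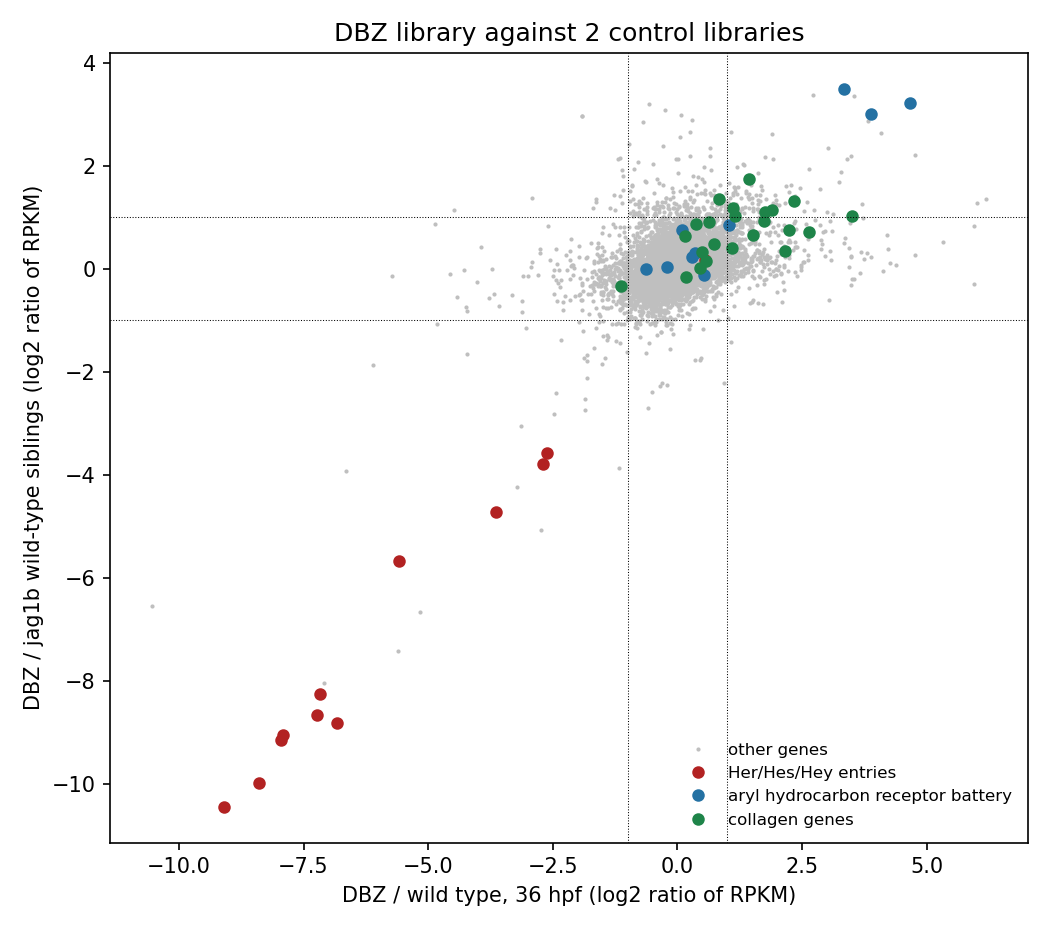
Each point is a gene, placed by its log2 ratio of RPKM with DBZ to wild types (horizontal) and to *jag1b* siblings (vertical), with dotted lines at 2-fold; both axes share the DBZ library, so the points lie along the diagonal in part for that reason. The Her/Hes/Hey entries apart from *hes6* fall to the lower left and 3 of the 10 aryl hydrocarbon receptor battery genes to the upper right. *hes6* has ratios of 0.55 and 0.17, and *her4.3* lies off the plot.

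Among the genes lower than all 4 controls, the lowest relative to their controls were mostly those of the Her/Hes/Hey family, the repressors that Notch signaling induces. Of 25 entries of the family, 13 passed the RPKM filter, and 12 of these were at least 2-fold below each of the 4 controls, against 0.529% of all genes. The median log2 ratio to wild types was -7.17. Apart from *her6*, *her9* and *hes6*, the entries passed only through the wild-type library, where they are high. Entries under the filter went both ways. *hes2.2* was at 2.38 RPKM with DBZ, above the 0.874, 2.03, 1.91 and 1.76 of the 4 controls. *her12* was at 0.145, below their 0.473, 0.665, 4.82 and 4.27. The exception among the 13 was *hes6*, at 10.3 RPKM with DBZ, against 7.04 in wild types, 9.14 in siblings, 8.18 in *hsp70I*:Gal4 and 8.81 in *UAS*:Edn1 controls. Hes6 is known in mammals as a partner that opposes Hes1 rather than as a Notch target.

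*her2* was at 0.0246 RPKM with DBZ, against 13.5 in wild types, 34.2 in siblings, 42.6 in *hsp70I*:Gal4 and 20.6 in *UAS*:Edn1 controls. In whole reads recovered from the RPKM steps this is 1 read against 527 in wild types, a 549-fold lower level with an exact Clopper-Pearson 95% interval from 98.1 to 21700, which covers counting error only. *hey1* had 2.04 RPKM with DBZ, against 97.8 in wild types, 104 in siblings, 66.8 in *hsp70I*:Gal4 and 91.7 in *UAS*:Edn1 controls. The 4 controls of *hey1* lie within a narrow range, and the DBZ library is 48-fold below wild types. *hey2* had 0.65 RPKM with DBZ, against 3.97, 7.73, 9.41 and 7.78 in the controls in the same order, or 62 reads against 363 in wild types. Hey1 and Hey2 are the hairy-related factors best known from vessels and heart.

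*her6*, a zebrafish counterpart of mammalian Hes1, kept a measurable level of 27.7 RPKM with DBZ, against 180 in wild types, 385 in siblings, 288 in *hsp70I*:Gal4 and 218 in *UAS*:Edn1 controls. *her9* had 7.17 RPKM with DBZ, against 89.7, 189, 163 and 138 in the controls. These 2 genes were thus 6.5-fold and 12.5-fold below wild types, less than the other lowered family members apart from *hey2*. The *her4* and *her15* genes lie in clusters of near-identical copies between which reads may have been divided, so their entries are uncertain singly. Summed, the 5 *her4* entries had 0.221 RPKM with DBZ, against 54.6 in wild types, 146 in siblings, 121 in *hsp70I*:Gal4 and 113 in *UAS*:Edn1 controls. The 2 *her15* entries summed to 0.331 RPKM with DBZ, against 63.3, 139, 129 and 114. The entry *her4.3* was listed at 7.37e-26 RPKM with DBZ, which is less than 1 read, and is given no fold. The 3 entries *si:ch211-193l2.3*, *si:ch211-193l2.4* and *si:ch211-193l2.5*, which the name tables leave without a gene name, summed to 0.407 RPKM with DBZ and to 27.5, 67.6, 125 and 103 in the controls.

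**Figure D3:**
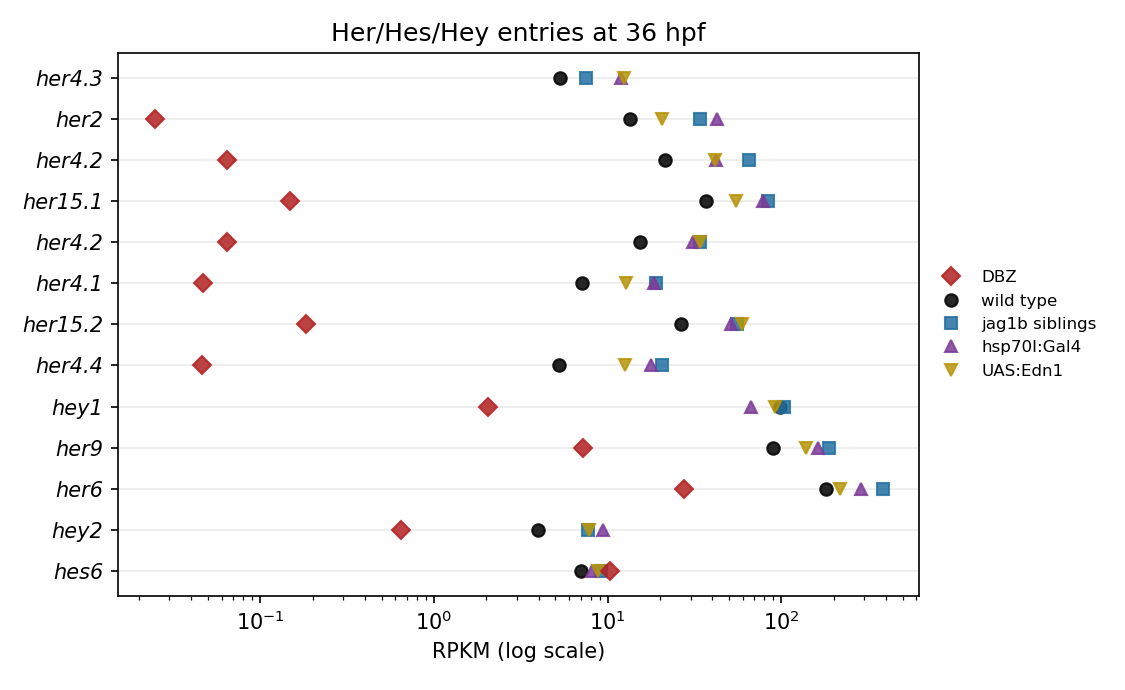
RPKM (log scale) of the 13 Her/Hes/Hey entries in the DBZ library and in the 4 control libraries at 36 hpf, 1 point per library. The DBZ point lies below every control for all entries but *hes6*; the value of *her4.3* with DBZ is too low to be drawn.

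The components of the pathway itself changed less. All 4 γ-secretase subunit genes passed the filter and none differed 2-fold from wild types or siblings. Of the receptors, *notch2* was at 13.4 with DBZ, against 11.6, 12.9, 13.6 and 18.2 in the 4 controls. *notch3* was at 2.68 with DBZ, below the 4.82 of wild types, 5.85 of siblings, 7.34 of *hsp70I*:Gal4 and 10.3 of *UAS*:Edn1 controls, and passed 2-fold against siblings but not wild types. *notch1a* did not pass the filter, at 0.977 with DBZ, below the 1.81, 2.36, 3.44 and 3.26 of the 4 controls. Nor did *notch1b*, at 0.323, against 0.659, 0.327, 0.254 and 0.277. None of the 10 genes listed for the nuclear complex, such as *rbpja* and *maml1*, differed 2-fold from both controls, nor did any of the 10 processing genes and modulators.

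Among the ligands, *jag1b* stood at 7.26 RPKM with DBZ, against 19.3 in wild types, 18.9 in siblings, 22.9 in *hsp70I*:Gal4 and 27.8 in *UAS*:Edn1 controls. It was 2.66-fold below wild types and 2.6-fold below siblings. *dla* and *dll4*, the other ligands that passed, did not differ 2-fold from both controls. Ligands under the filter went both ways. *dlc* was at 0.271 with DBZ, below the 0.798, 0.976, 2.4 and 1.78 of the 4 controls. *jag1a* was at 0.705, against 0.428, 0.424, 0.425 and 0.713. *nr2f1b*, a nuclear receptor gene of the dorsal arches, had 11.9 RPKM with DBZ, against 43 in wild types, 68.5 in siblings, 51.2 in *hsp70I*:Gal4 and 86.7 in *UAS*:Edn1 controls. It was the only gene among 21 listed as other Notch targets to pass both controls, against 0.664% of all genes that were lower than both. *nrarpa*, a feedback inhibitor of Notch, depended on the control used: its RPKM was 25.5 with DBZ, above the 12 of wild types but below the 68.3 of siblings, 63.6 of *hsp70I*:Gal4 and 66.9 of *UAS*:Edn1 controls.

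Genes outside these lists were also at least 2-fold below all 4 controls, and those named next were picked from the 43 such genes after their values were seen. *sox3*, a SoxB1 factor of neural progenitors, had 1 RPKM with DBZ, against 3.22 in wild types, 2.91 in siblings, 5.05 in *hsp70I*:Gal4 and 7.02 in *UAS*:Edn1 controls. *fabp7a*, a fatty acid binding protein of radial glia, had 6.44 RPKM with DBZ, against 13, 19.7, 40.8 and 22.6. *zeb2a*, a zinc finger repressor, had 1.68 with DBZ, against 4.82, 6.04, 13.9 and 12.1. The matrix proteoglycan genes *vcanb* (versican) and *NCAN* (neurocan) had 2.53 and 1.68 RPKM with DBZ, against 8.96 and 4.47 in wild types and 8.79 and 4.08 in siblings. *gch2*, which makes the pteridine precursor of xanthophores, had 1.71 RPKM with DBZ, against 3.83 in wild types and 24.8 in siblings. The globin entries *hbae1*, *hbbe1.1* and *hbbe3* are also among the 43, and the blood markers above moved with them. One of 2 entries of *rrm2* was too, at 5.91 against 55 in wild types, but the entries summed to 225 with DBZ, against 237 in wild types and 206 in siblings, so reads divided between copies cannot be told apart from a change. Of 4 proneural and early neuronal genes that passed the filter, none differed 2-fold from either control.

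Among the genes higher than all 4 controls, cytochrome P450 genes of the aryl hydrocarbon receptor battery had some of the largest ratios to their highest control. Only *si:dkeyp-3b12.11*, from a cluster of entries between which reads may be divided, exceeded *cyp1a* in this ratio. The 10 entries of that cluster summed to 311 RPKM with DBZ, below the 1350 of wild types, 344 of siblings, 389 of *hsp70I*:Gal4 and 334 of *UAS*:Edn1 controls. The aryl hydrocarbon receptor binds planar aromatic compounds and switches on enzymes that oxidize them. *cyp1a* had 76.2 RPKM with DBZ, against 2.98 in wild types, 8.16 in siblings, 1.64 in *hsp70I*:Gal4 and 0.688 in *UAS*:Edn1 controls. This is 25.5-fold over wild types with a counting interval from 23.1 to 28.3, from 10432 reads against 392. *cyp1c1* had 66.9 RPKM with DBZ, against 4.55, 8.32, 3.59 and 3.29 in the controls. *cyp1c2* had 3.35 with DBZ, against 0.331, 0.298, 0.516 and 0.213. For each of these genes the DBZ library stands clear of all 4 controls. They are 3 of 10 listed genes that passed the filter, against the 0.738% of all genes that were 2-fold above all 4 controls. *cyp1a* and *cyp1c2* passed the filter only through the DBZ library, where they are high, so the 3 of 10 is in part set by the filter. *tiparp*, a further target of the receptor, had 36.5 RPKM with DBZ, against 17.9, 20.3, 14.6 and 17, and the receptor gene *ahr2* had 8.49, against 6.65, 6.87, 5.4 and 7.13. Other listed genes did not rise to this extent. The log2 ratios of *cyp1d1* were 0.08 to wild types, 0.76 to siblings and 0.15 to the mean of the heat-shocked controls. Those of *aip* were -0.21, 0.03 and 0.05 in the same order. For *nqo1* only the ratio to wild types is given, at -0.62. By any amount, 6 of the 10 were above all 4 controls, against 19.2% of all genes, and none was below all 4.

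Other genes at least 2-fold above all 4 controls have varied roles, and those named next were chosen among the 60 such genes with their values known. *lepa*, which encodes a leptin, had 31.8 RPKM with DBZ, against 1.86 in wild types, 5.14 in siblings, 3.4 in *hsp70I*:Gal4 and 3.89 in *UAS*:Edn1 controls. *bbc3* (Puma), which promotes apoptosis, had 7.18 with DBZ, against 0.506, 0.988, 2.21 and 1.97. It was the only 1 of 14 listed apoptosis and damage response genes to pass both controls, against 1.3% of all genes that were higher than both. *cbx7a*, a Polycomb component, had 35.6 with DBZ, against 3.38, 8.07, 16.8 and 15.5. *txnipb*, a thioredoxin-interacting protein gene, had 4.92 with DBZ, against 0.751, 0.474, 0.556 and 0.418. Like *lepa* and *bbc3*, it passed the filter only through the DBZ library. *mvp*, the major vault protein, had 53.3 with DBZ, against 6.55, 10.5, 11 and 10.3. *mvp* is on the ear marker list, but the ear marker *oc90* was at 6.92 with DBZ, within the 4.7 to 10.2 of the controls. The growth factor gene *igf2a* had 17.4 with DBZ, against 5.56, 6.98, 6.32 and 5.26. The BMP and activin antagonist gene *fstb* had 14.5, against 3.84, 6.01, 1.89 and 1.24.

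**Figure D4:**
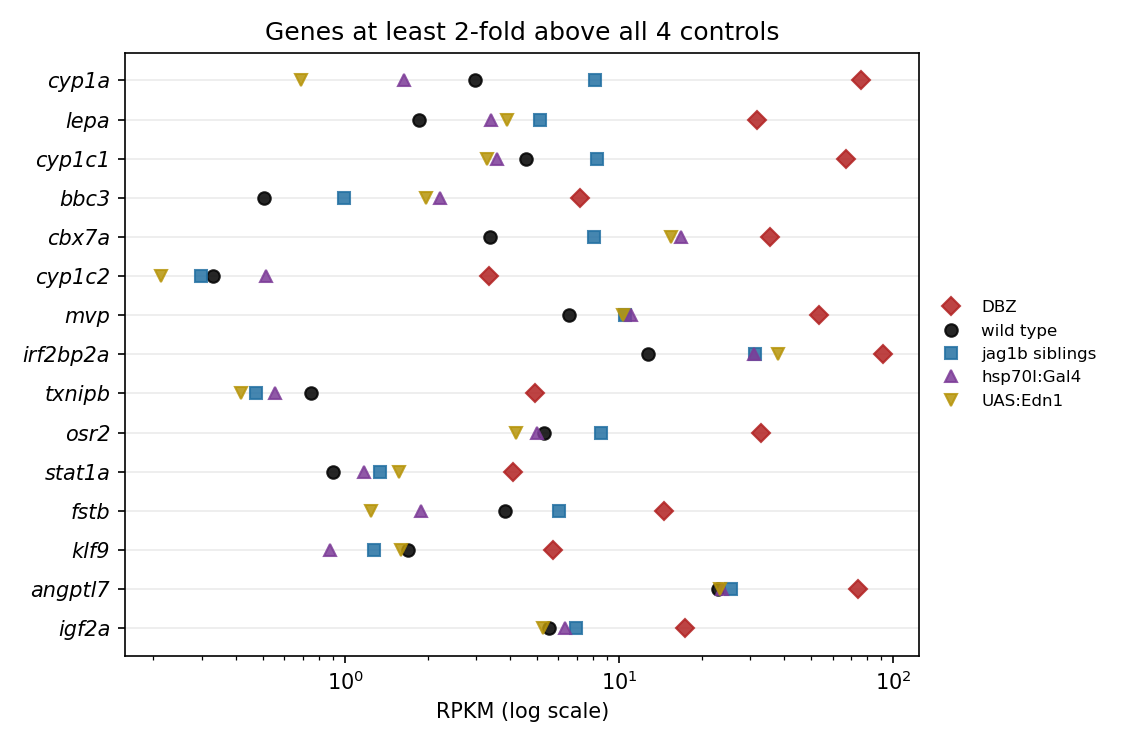
RPKM (log scale) of 15 genes chosen among the 60 that were at least 2-fold above all 4 controls, 1 point per library. The DBZ point is the rightmost in every row, by the largest margin for *cyp1a* and *cyp1c1*.

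Collagen genes were higher with DBZ. Of 23 entries matched by the name pattern that passed the filter, 13 were at least 2-fold above wild types, 7 above both controls and 3 above all 4. Over all genes these shares were 6.1%, 1.3% and 0.738%. By any amount, 19 entries were above all 4 controls, against 19.2% of all genes (24.8% were below all 4). The pattern also takes in *col4a3bpb*, which encodes a ceramide transfer protein and not a collagen. The median log2 ratio of the list was 1.12 to wild types and 0.76 to siblings. Type I collagen, the main fibril of bone and skin, had the highest levels with DBZ: *col1a2* was at 267 RPKM, against 151 in wild types, 105 in siblings, 82.3 in *hsp70I*:Gal4 and 99 in *UAS*:Edn1 controls. *col1a1a* had 258 RPKM with DBZ, against 69.6 in wild types, 116 in siblings, 96.5 in *hsp70I*:Gal4 and 110 in *UAS*:Edn1 controls. *col1a1b* had 103 with DBZ, against 20.5, 41.4, 35.7 and 44.5. The cartilage collagen gene *col9a1a* had 37.4 with DBZ, against 13.9, 11.3, 9.2 and 10.7. For *col2a1b*, the ratio of 11.3 to wild types rests on the low wild-type value: its RPKM was 147 with DBZ, against 13 in wild types and 72.1, 80 and 88.2 in the other controls. *col4a1*, a basement membrane collagen gene, went the other way, at 3.7 with DBZ, against 8.11, 4.64, 5.77 and 6.15.

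**Figure D5:**
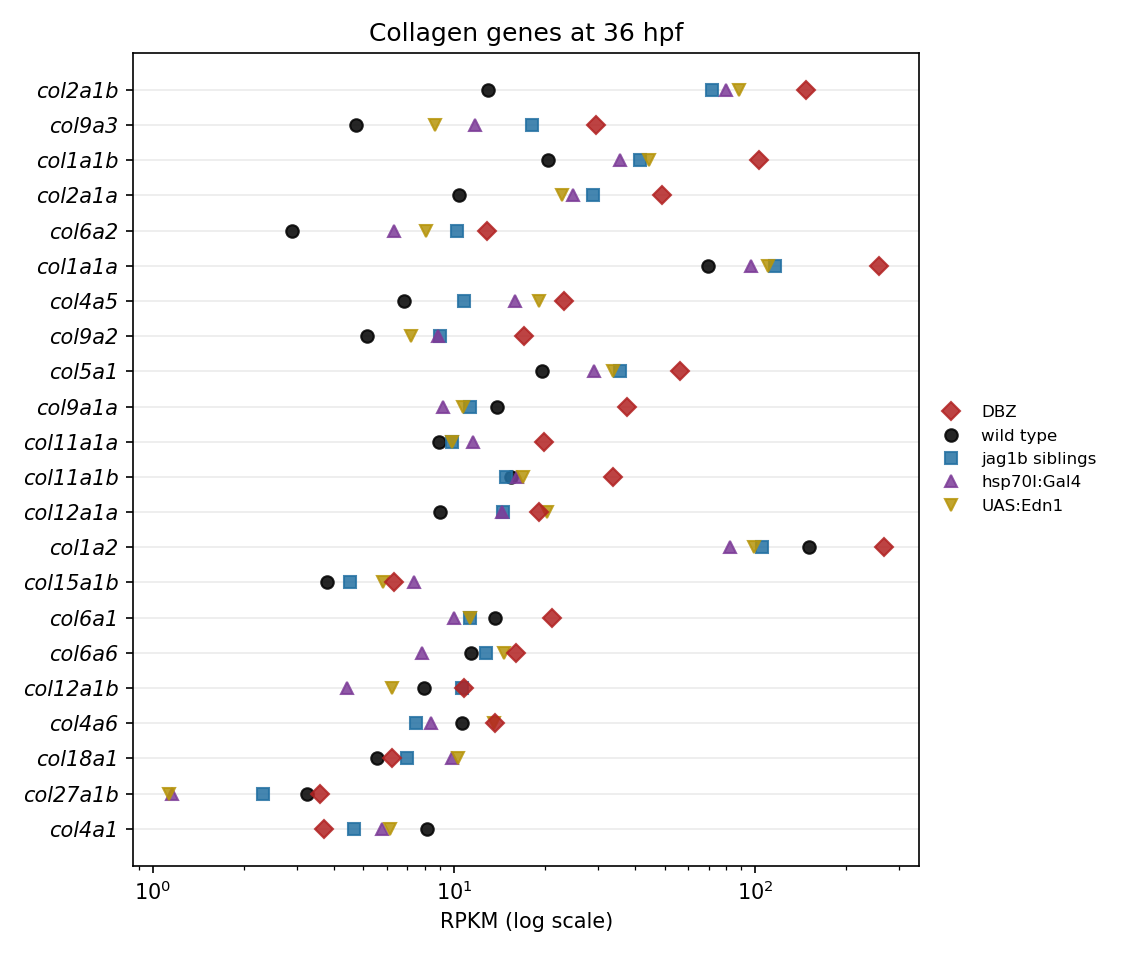
RPKM (log scale) of the 22 collagen genes that passed the filter, without *col4a3bpb*, in the DBZ library and in the 4 controls, 1 point per library. The wild-type point is the lowest of the 5 for many genes, and *col1a1a*, *col1a1b* and *col9a1a* have DBZ points at least 2-fold above every control.

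Of 18 cartilage and condensation genes that passed, 11 were at least 2-fold above wild types, 5 above both controls and 13 above all 4 by any amount; over all genes these shares were 6.1%, 1.3% and 19.2%. Of the 18, 7 are collagens already counted, and apart from collagens only *matn4* passed both controls upwards. *matn4*, a cartilage matrix protein gene, had 86.4 RPKM with DBZ, against 41.1 in wild types, 38.2 in siblings, 20.8 in *hsp70I*:Gal4 and 21 in *UAS*:Edn1 controls. The chondrogenic regulators differed by control: *sox9b* was at 7.97 with DBZ, against 1.43 in wild types but 8.12 in siblings, and passed the filter only through the DBZ library. *sox9a* was at 2.97 with DBZ, below the 4.52 of wild types and 3.74 of siblings. It was above the 2.68 of *hsp70I*:Gal4 and 2.27 of *UAS*:Edn1 controls. *barx1*, an early marker of condensations, was at 79.3 with DBZ, against 83, 117, 66.2 and 66.9. *nkx3.2*, a jaw joint gene, had 49.7 with DBZ, against 16.9, 33.8, 7.71 and 6.68. *shox* was lower than both controls without heat shock, at 4.41 with DBZ, against 12 and 14.7, but not lower than the heat-shocked ones, at 4.24 and 3.77.

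Of 57 dorsoventral patterning genes that passed, 4 were lower than both controls and 2 were higher, against 0.664% and 1.3% of all genes. The lower ones were *hey1*, *nr2f1b* and *jag1b*, already counted in the lists above, and *pou3f3b*, all known as genes of the dorsal arch. *pou3f3b* had 16.5 RPKM with DBZ, against 34.5 in wild types, 34.7 in siblings, 32 in *hsp70I*:Gal4 and 42.6 in *UAS*:Edn1 controls. The higher ones were *nog1*, a BMP antagonist gene, and *osr2*, a zinc finger gene of the odd-skipped family. *osr2* had 32.9 RPKM with DBZ, against 5.3, 8.61, 5.02 and 4.2, or 2298 reads against 355 in wild types. The ventral gene *hand2* was at 59 with DBZ, below the 73, 116, 78.7 and 107 of the controls but not 2-fold below wild types or siblings. The ventral gene *dlx5a* was at 96.6, within the 75.4 to 106 of the controls.

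Genes of other signaling pathways were set against the 19.2% of all genes that were above all 4 controls. Of all genes, 1.3% were at least 2-fold above both wild types and siblings. Of 16 BMP and TGF-β target genes, 11 were above all 4 controls, and 1 passed 2-fold against both wild types and siblings. Immediate early genes are switched on within minutes of a stimulus. Of 23 immediate early entries, 16 were above all 4 controls, and 1 passed 2-fold against both wild types and siblings. Among the 16 was *jun* at 871 with DBZ, against 430, 538, 309 and 328. Of 17 FGF feedback genes, 9 were above all 4 controls, and none passed 2-fold against both wild types and siblings. The Hedgehog, retinoic acid and Wnt target lists had 3 of 9, 2 of 8 and 1 of 9 genes above all 4 controls, and none of these genes passed 2-fold against both wild types and siblings.

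Libraries that share nothing with DBZ, wild types or siblings allow a separate look at the genes called against wild types and siblings. With NICD overexpression, 263 of all 8133 genes (3.23%) were at least 2-fold above *hsp70I*:Gal4 controls and 192 (2.36%) at most 1/2. Of the 54 genes lower with DBZ than both controls, 21 (38.9%) were higher with NICD and 5 (9.26%) lower. Without the Her/Hes/Hey entries, 11 of 42 (26.2%) were higher and 5 (11.9%) lower. These 42 hold the 3 *si:ch211-193l2* entries, which summed to 1760 RPKM with NICD, against 125 in *hsp70I*:Gal4 controls. They also hold 4 blood marker entries, and the hemoglobin entries summed to 603 with NICD, against 1440. The part of these entries in the shares was not tested. Of the 106 genes higher with DBZ, 11 were higher with NICD and 10 (9.43%) lower. For *sox3*, *fabp7a* and *cyp1a*, named above as passing all 4 controls, the *hsp70I*:Gal4 library is shared with that choice. *sox3* had 25.1 RPKM with NICD, 4.98-fold over *hsp70I*:Gal4 controls, and *fabp7a* had 228, 5.58-fold over them. The pigment and glia markers moved with these genes, with a sum of 120 with NICD, against 27.5 in *hsp70I*:Gal4 controls, and their part in the NICD values was not tested. *her6* and *her9* were at 304 and 160 with NICD, against 288 and 163 in *hsp70I*:Gal4 controls. *cyp1a* was at 1.22 with NICD, against 1.64. Of the 10 listed genes of the aryl hydrocarbon receptor battery, 3 were at least 2-fold higher with NICD and none at most 1/2. In *jag1b* mutants, which share the sibling control with the calls above, *nr2f1b* was 2.94-fold and *pou3f3b* 2.02-fold below siblings, *hey1* 1.36-fold, *her6* 1.47-fold, *hey2* 2.54-fold and *her2* 2.71-fold. The *her4* entries summed to 28.4 RPKM in *jag1b* mutants, against 146 in siblings, and the *her15* entries to 41.7, against 139.

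Between 20 and 28 hpf in wild types, 730 of all genes (8.98%) had at least 2-fold the RPKM at 28 hpf and 155 (1.91%) at most 1/2. Of the genes higher with DBZ than both controls, 31 of 106 (29.2%) were higher at 28 hpf and 4 (3.77%) lower. Of the genes lower with DBZ, 16 of 54 (29.6%) were higher at 28 hpf and 7 (13%) lower.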

How the data were processed

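Cells were sorted for both transgenes from pooled embryos, and cDNA was sequenced as paired ends. The deposited values are RPKM, which the authors obtained by TopHat 2 alignment against GRCz10 and quantification of Ensembl genes with the E/M method of Partek; read totals are not part of them. E/M can divide reads between near-identical copies. Ratios of RPKM as deposited were computed in Python 3.11.15 (numpy 2.4.6, pandas 2.3.3, scipy 1.17.1), with plots by matplotlib 3.10.9; there are 13 libraries, 1 per condition, and hence no tests. A gene entered when either library reached 3 RPKM, and a call is a 2-fold ratio. Whole reads, found by a search for steps within 0.1 of a read in at least 8 libraries, were recovered for 2016 members (24.8%); their intervals are exact Clopper-Pearson at 95% and cover counting error only. Scripts were tested on simulated data.

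Genes named are members of 42 gene lists and the 25 with the largest ratio to wild types in each direction that also differed 1.5-fold the same way from siblings; others are named as chosen after their values were seen. The members and lists were chosen with earlier results of these data known. Alternatives were other RPKM minimums, fold thresholds and pseudocounts, median-ratio scaling, other controls and merged copies. Of the members, 7848 have an ID in the name table. Coordinates and sequences are not given, and double-negative cells were not analysed here. Values of a few genes are not reported here.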

Additional observations from a re-analysis of the deposited data

How the results depend on the processing

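An RPKM minimum of 1 gave 861 genes lower and 815 higher than wild types, and 162 lower and 188 higher than both controls. A threshold of 1.5-fold gave 1097, 1042, 183 and 354 in the same order, and 3-fold gave 138, 207, 30 and 21, with 8 collagen genes higher. A pseudocount of 1 left 254 genes lower than wild types and 33 lower than both controls. With the *jag1b* siblings in place of wild types, in the RPKM filter as well, 129 genes were lower and 289 higher. In this setting 8 collagen genes were higher, and the median log2 ratio was 0.055, of the opposite sign to that against wild types. With 1 entry kept per family of copies or repeated symbol, 43 genes were lower than both controls in place of 54, and 106 were higher. In this setting 7 Her/Hes/Hey entries of 8 were lower. Alternatives chosen after seeing the data were all 4 controls, which left 60 genes higher, the 3 controls without the wild-type library, and entries of 1 symbol summed. Of the named genes, *si:ch211-146g19.1* changed sign, to a log2 ratio of -0.61, against the mean of the heat-shocked controls. The causes were not tested. The count of 12 lower Her/Hes/Hey entries of 13 was 11 of 12 at an RPKM minimum of 5 and 12 of 15 at a minimum of 1. It was 12 of 14 with the siblings and 13 of 15 against the mean of the heat-shocked controls. With both fold thresholds, both pseudocounts and the scaling it stayed at 12 of 13. No paired analysis was possible because each condition has 1 library and the labels give no replicate numbers. Leaving out a replicate was not possible for the same reason. Total read numbers are unknown, and 1 library a side gives no error for any ratio beyond counting.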

Other observations

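Cytosolic ribosomal protein genes were slightly higher with DBZ: of 80 that passed the filter, 58 were above all 4 controls, against 19.2% of all genes, with a median log2 ratio of 0.17 to wild types, 0.50 to siblings, 0.49 to *hsp70I*:Gal4 and 1.07 to *UAS*:Edn1 controls. None was 2-fold above both wild types and siblings. Of 36 genes for protein folding and trafficking in the endoplasmic reticulum, 20 were above all 4 controls, and none passed 2-fold against both. The 4 *hsp70* genes were at most 1/2 of the sibling values, such as *hsp70l* at 14.1 RPKM with DBZ, against 65.1 in siblings and 7.36 in wild types.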
